A study of Zea mays with 3 samples.

Results

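The 4 genes described here are maize genes that the study places in the jasmonic acid biosynthesis pathway, and 5 array probes measured them. They are GRMZM2G077316 (aoc1, allene oxide cyclase), GRMZM2G109130 (lox3, lipoxygenase), GRMZM2G156861 (lox1, lipoxygenase, with 2 probes) and GRMZM2G132903 (LOC100285945, whose enzyme is not named in the sources used here). The probes were taken by their identity on the array and by the pairing of array features with gene models in the supplementary tables, out of 42034 probes that represent transcripts. The 4 genes are among 6832 gene models that the tables pair with a probe. Symbols are those of the reference gene table of the maize assembly Zm-B73-REFERENCE-NAM-5.0. The paper's other jasmonic acid genes are not analysed here.

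Jasmonic acid is a lipid hormone made from linolenic acid that leaves membranes of the plastid. A lipoxygenase adds oxygen to the fatty acid, allene oxide synthase turns the product into an unstable epoxide, and allene oxide cyclase closes the ring that fixes the form of the later hormone. The precursor is then reduced and shortened in the peroxisome. Jasmonate is known for its part in wound responses, and in many plants for its part in stamen maturation and, in maize, for the abortion of pistils in tassel florets. JAZ proteins, which carry a ZIM motif, repress the response until jasmonate triggers their removal.

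The arrays compared anthers of a line in which Mutator (Mu) transposons are active (Mu-active) with anthers of a line in which they are inactive (Mu-inactive), at anther lengths of 1.0 mm, 1.5 mm and 2.0 mm. Mutator is a family of maize DNA transposons whose master element, MuDR, encodes the transposase. Every length was measured on 4 Agilent maize arrays that took both lines together, with Mu-active in Cy3 on 2 arrays and in Cy5 on the other two. The plants were grown in the field and not treated. According to the methods, anthers of 1 tassel were pooled for a biological replicate, and some experiments hybridized a replicate more than once, so that the spread between these arrays may be partly technical. The methods give the W23 bz2 inbred as the background except as noted, and the labels name neither inbred nor clone for the 2 lines. The methods place the 1.0 mm data in a separate experiment, prepared in the same way on the same array. They do not mention the 2 lines or arrays of 1.5 mm and 2.0 mm. Whether their pooling, replicates and background hold for these arrays is thus not stated.

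The direction of the lines is likely but not stated array by array. The labels give the dyes of 4 replicates without linking them to the arrays, and the arrays taken by number would give the opposite direction. The direction used here rests on the supplementary intensities at 1.0 mm, which name the lines. The log2 difference of the lines in that table and the one computed here had a Pearson correlation of 0.901 over 1071 probes. At all 3 lengths the deposited log2 ratios, whose titles set the active against the inactive line, ran the same way, with correlations over probes of 0.992 for 1.0 mm, 0.989 for 1.5 mm and 0.992 for 2.0 mm. The line differences of the lengths also correlated positively with each other across all 42034 probes, at 0.255 between 1.0 mm and 1.5 mm, 0.591 between 1.5 mm and 2.0 mm and 0.220 between 1.0 mm and 2.0 mm. Probes are not independent of each other, so these values only describe the arrays. If the direction were turned, each difference between the lines below would keep its size and change its sign.

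As a check of the labels, the 4 probes named for MuDR were ON in both lines at every length, and none was called different. The probe named for mudrB (A_92_P034510), the second gene of MuDR, was higher in the Mu-active channel in 4 of 4 arrays at each length, with log2 ratios over the Mu-inactive channel of 0.36, 0.33 and 0.18 in order of length. The other 3 MuDR probes were less uniform. A_92_P012404, named for an end of MuDR, had 0.16, 0.49 and 0.95 in order of length, and was higher in 3, 4 and 4 of 4 arrays. Both probes named for mudrA, the transposase gene, were close to even at most lengths, with 0.02, -0.01 and 0.00 for A_92_P031891 (higher in 2 of 4 arrays each time) and -0.02, 0.19 and 0.08 for A_92_P019862 (higher in 2, 4 and 2 of 4 arrays). These probes thus do not settle the direction by themselves. Of 3 probes named for am1, the anther gene needed for entry into meiosis and the marker of anthers found on the array by name, 2 were ON in both lines at every length. The 3 probes of leaf chlorophyll a/b binding proteins were ON in both lines at every length, with summed intensities of 358 to 967 in Mu-active and 378 to 1172 in Mu-inactive anthers, and none was called different. Whether leaf-like RNA had a part in the results was not tested. In these bulk samples, fewer cells of a type and less RNA per cell cannot be told apart.

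All 5 probes were well within the measured range. Each was ON, which means brighter than the 153 negative controls by over 3 of their SDs from their mean, in all 4 arrays of both lines at all 3 lengths. No spot of the 5 probes was saturated or flagged as an outlier by the scanner software. Values are normalized intensities on a linear scale, given as the mean ± SD over 4 arrays. The intensity of a probe depends on its sequence, so levels are compared within a probe and not between genes.

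Allene oxide cyclase was the gene whose difference between the lines was called. At 2.0 mm, aoc1 transcript (A_92_P008265) was 2.52-fold higher in Mu-active anthers, while at 1.0 mm it was lower in the Mu-active channel of every array, and the change of the difference between these lengths was itself called. The other 3 genes had no called difference between the lines at any length. Both lox1 probes varied more between arrays than nearly all other probes.

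At 1.0 mm the intensity of aoc1 in arrays 1 to 4 was 2535, 3555, 3243 and 4788 in the Mu-active channel, against 3010, 4954, 4464 and 6444 in the Mu-inactive channel. The ranges of the lines overlapped, but within each array the Mu-active channel was the dimmer one. At 1.5 mm the values were 6521, 8849, 8725 and 4056 in Mu-active anthers, against 4859.7, 6408, 5429 and 3541 in Mu-inactive anthers. Here the Mu-active channel was the brighter one in each array, and the ranges again overlapped. At 2.0 mm the values were 5459, 8803, 10988 and 6050.1 in Mu-active anthers, against 2413, 2741, 3708 and 3229 in Mu-inactive anthers. At this length the lowest Mu-active value lay above the highest Mu-inactive value, and 3.34% of all probes had lines that did not overlap, in either direction.

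**Figure D1:**
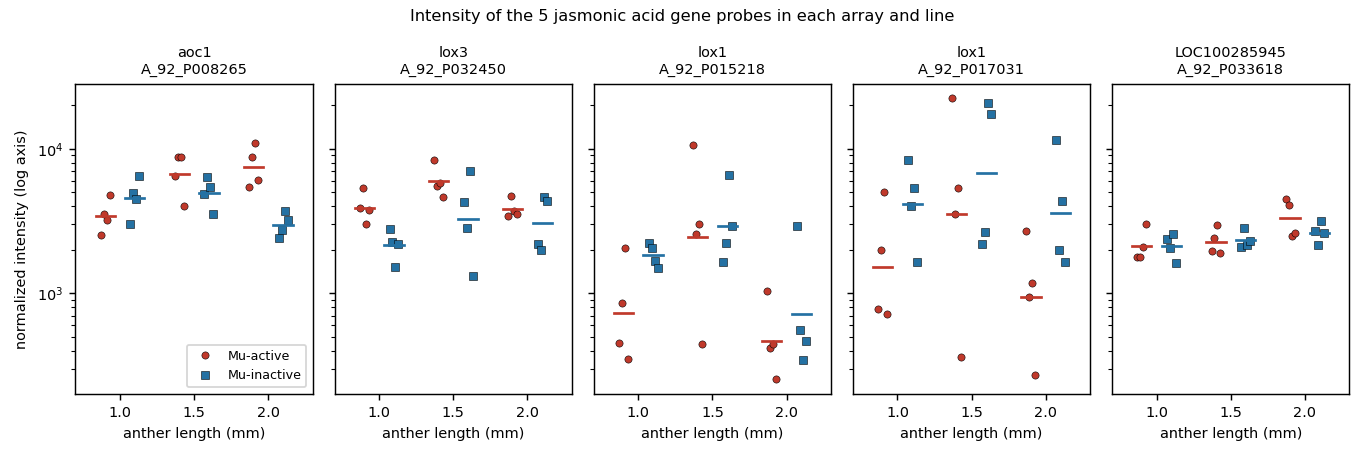
Normalized intensity (log axis) of the 5 probes against anther length in mm, with red circles for Mu-active and blue squares for Mu-inactive anthers in each of 4 arrays, and bars at the mean of the log2 values. The aoc1 points of the lines separate at 2.0 mm, with Mu-active values from 5459 to 10988 and Mu-inactive values from 2413 to 3708, while the lox1 points spread widely within a line.

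In the limma fit over all 42034 probes, the log2 ratio of Mu-active over Mu-inactive for aoc1 at 2.0 mm was 1.33 ± 0.12 (SE). The 95% confidence interval ran from 1.07 to 1.60, and the adjusted p was 0.00291 by limma. This SE rests on the spread over all 12 arrays and was the same at each length. In this fit aoc1 ranked 7 by p-value among all probes at 2.0 mm. With the 2.0 mm arrays fitted alone, the same ratio of 1.33 had an adjusted p of 0.104 by limma and was not called. Of the 5 member probes, 1 was called at 2.0 mm, where 0.866% of all probes were called in either direction. A call required a Benjamini-Hochberg adjusted p under 0.05. None was called at 1.0 mm, where 0.376% of all probes were, or at 1.5 mm, where 0.471% were. The median log2 ratio over the 5 probes was -0.40 at 1.0 mm, -0.04 at 1.5 mm and 0.31 at 2.0 mm, while that over all probes was 0.00 at each length. At 1.0 mm the log2 ratio of aoc1 was -0.40 ± 0.12 (SE), with values of -0.25, -0.48, -0.46 and -0.43 in the 4 arrays, and an adjusted p of 0.244 by limma. At 1.5 mm it was 0.44 ± 0.12 (SE), with values of 0.42, 0.47, 0.68 and 0.20 and an adjusted p of 0.189 by limma. At 2.0 mm the values were 1.18 and 1.68 in the arrays with Mu-active in Cy3, and 1.57 and 0.91 in those with Mu-active in Cy5, so both dye orientations gave the same direction. The log2 ratio of aoc1 therefore had 1 sign in all 4 arrays at each length, and the shares of all probes with such agreement were 13.9%, 14.6% and 16.0% in order of length.

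The difference between the lines for aoc1 itself differed between lengths. The change of its log2 ratio between 1.0 mm and 2.0 mm was 1.74 ± 0.17 (SE), with a 95% confidence interval from 1.37 to 2.11 and an adjusted p of 0.0130 by limma, and it ranked 4 among all probes. With the channels taken as unpaired (no replicate block), the change of 1.74 had an adjusted p of 0.213 by limma and was not called. Of the 5 member probes, 1 was called in this contrast, where 0.0523% of all probes were. The change between 1.0 mm and 1.5 mm was 0.85 ± 0.17 (SE) with an adjusted p of 0.181, and that between 1.5 mm and 2.0 mm was 0.89 ± 0.17 (SE) with an adjusted p of 0.542, both by limma. No member probe was called in these contrasts, in which 0.00952% and 0% of all probes were called. For the contrast of 1.5 mm and 2.0 mm, limma called 0 of 42034 probes, and 2828 had an unadjusted p under 0.05. The 4 arrays of a length are expected, but were not shown, to lie on 1 slide. Both lines share each array, so a slide would not separate the lines within a length. With such slides, length and slide change together. A change of the ratio between lengths then cannot be told apart from one between slides.

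Set out by line, the aoc1 intensity averaged 3530.1 ± 941 at 1.0 mm, 7038 ± 2257 at 1.5 mm and 7825 ± 2563 at 2.0 mm in Mu-active anthers. In Mu-inactive anthers it averaged 4718 ± 1416 at 1.0 mm, 5059 ± 1197 at 1.5 mm and 3023 ± 567 at 2.0 mm (SD, n = 4 for each). The order of the levels was thus Mu-active at 2.0 mm, Mu-active at 1.5 mm, Mu-inactive at 1.5 mm, Mu-inactive at 1.0 mm, Mu-active at 1.0 mm and Mu-inactive at 2.0 mm, and the ranges of all neighbors in this order overlapped. Between lengths, length and the expected slide cannot be told apart, so no p-value is given. The values of Mu-active anthers at 2.0 mm all lay above those at 1.0 mm, by 1.13 on the log2 scale, as 1 of the 5 member probes, where 18.2% of all probes had values that did not overlap in either direction. In Mu-inactive anthers the log2 difference of aoc1 between 2.0 mm and 1.0 mm was -0.61, and the values overlapped. No member probe was free of overlap in that comparison, where 19.9% of all probes were.

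**Figure D2:**
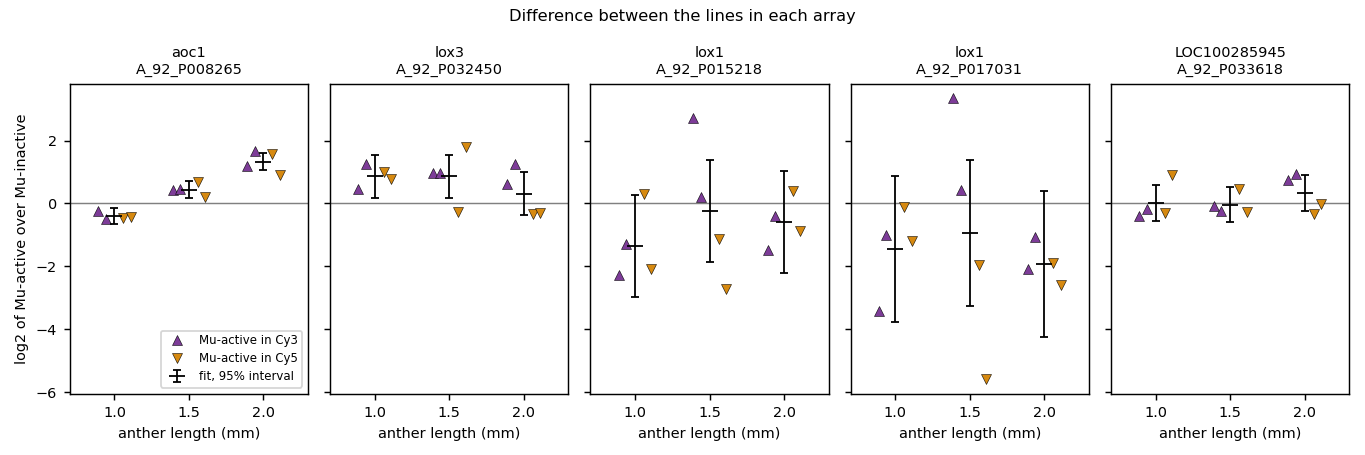
Log2 ratio of Mu-active over Mu-inactive in each array against anther length in mm, with upward triangles for Mu-active in Cy3 and downward triangles for Mu-active in Cy5, and the limma estimate with its 95% confidence interval in black. For aoc1 the estimates are -0.40 at 1.0 mm, 0.44 at 1.5 mm and 1.33 at 2.0 mm, and the 4 arrays of a length share a sign at each.

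The lipoxygenases stand before allene oxide cyclase in the pathway. In maize, lox3 is known as an enzyme that oxygenates linolenic acid at the position that does not lead to jasmonate, although the study lists it in this pathway. At 1.0 mm, lox3 (A_92_P032450) had intensities of 3887, 5359.7, 3021 and 3756 in Mu-active anthers, against 2805, 2266, 1519 and 2202 in Mu-inactive anthers. The lines did not overlap, as was so for 2.23% of all probes at 1.0 mm in either direction, and lox3 was the only member probe of which this held at that length. At 1.5 mm the values were 8419.9, 5579, 5812 and 4646 in Mu-active anthers, against 4319, 2842, 7079.8 and 1328 in Mu-inactive anthers. Array 3 was the exception to a brighter Mu-active channel at this length. At 2.0 mm the values were 3410.0, 4755, 3699 and 3541 in Mu-active anthers, against 2209, 2004, 4628 and 4347 in Mu-inactive anthers, and the Mu-active channel was brighter in 2 of 4 arrays.

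The log2 ratio of lox3 was 0.87 ± 0.30 (SE) at 1.0 mm, with an adjusted p of 0.366, and 0.86 ± 0.30 (SE) at 1.5 mm, with an adjusted p of 0.345 (limma). Neither was called, although both passed the rule of the methods, which asks for a log2 change of 0.58 or more, up or down, and a p of 0.05 or less before adjustment. By that rule 1 of the 5 member probes passed at 1.0 mm and at 1.5 mm, lox3 each time, where 2.18% and 1.99% of all probes passed. At 2.0 mm aoc1 was the 1 that passed, where 2.80% of all probes did. The lox3 ratio at 2.0 mm was 0.31 ± 0.30 (SE), with a 95% confidence interval from -0.37 to 0.99. The arrays with Mu-active in Cy3 gave 0.63 and 1.25 at 2.0 mm, and those with Mu-active in Cy5 gave -0.32 and -0.30. The dye term of the fit for lox3 was -0.24, with an adjusted p of 0.451 by limma, and the part of the dye in the split was not tested further.

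Across lengths, lox3 averaged 4006 ± 980 at 1.0 mm, 6114 ± 1618 at 1.5 mm and 3851 ± 614 at 2.0 mm in Mu-active anthers, and 2198 ± 527, 3892 ± 2451 and 3297 ± 1382 in Mu-inactive anthers at the same lengths (SD, n = 4 for each). The highest mean of each line was the one at 1.5 mm. No pair of lengths was free of overlap in either line. Among all probes the values of 2 lengths did not overlap for 13.3% between 1.0 mm and 1.5 mm and 11.1% between 1.5 mm and 2.0 mm in Mu-active anthers. In Mu-inactive anthers the shares were 18.0% and 13.8%. None of the 5 member probes was among them in these 4 comparisons.

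The 2 probes of lox1 had the widest spread between arrays of the member probes. At 1.0 mm the probe A_92_P015218 had intensities of 456, 858, 2051 and 349 in Mu-active anthers, against 2224, 2077, 1669 and 1489 in Mu-inactive anthers. Array 3 was the exception to a dimmer Mu-active channel. At 1.5 mm its values were 10678, 2593, 3035 and 446 in Mu-active anthers, against 1639, 2248, 6606 and 2948 in Mu-inactive anthers. The highest Mu-active value was 23.9 times the lowest at this length, and 2 of 4 arrays had the brighter Mu-active channel. At 2.0 mm its values were 1041, 416, 449 and 253 in Mu-active anthers, against 2929, 554, 344 and 468 in Mu-inactive anthers. Array 1 held the highest value of both lines at 2.0 mm.

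The second lox1 probe, A_92_P017031, gave 777, 1990.0, 5016 and 714 in Mu-active anthers at 1.0 mm, against 8389, 4002, 5376 and 1644 in Mu-inactive anthers. The Mu-active channel was dimmer in each array, by little in array 3. At 1.5 mm its values were 22334, 3561, 5350.3 and 362 in Mu-active anthers, against 2209, 2645, 20623 and 17498 in Mu-inactive anthers. The Mu-active values at 1.5 mm spanned 61.8-fold, the widest range of a member probe within a line and a length. At 2.0 mm the values were 2707, 942, 1183 and 271 in Mu-active anthers, against 11577, 1989, 4357 and 1639 in Mu-inactive anthers, and the Mu-active channel was dimmer in 4 of 4 arrays. At this length A_92_P015218 was dimmer in 3 of 4 arrays.

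No lox1 difference was called. The log2 ratios were -1.34 ± 0.73 at 1.0 mm, -0.23 ± 0.73 at 1.5 mm and -0.60 ± 0.73 at 2.0 mm for A_92_P015218 (SE, limma), with adjusted p-values of 0.712, 0.960 and 0.819. For A_92_P017031 they were -1.44 ± 1.04, -0.94 ± 1.04 and -1.91 ± 1.04, with adjusted p-values of 0.900, 0.846 and 0.520 (SE, limma). The 95% confidence interval for A_92_P017031 at 2.0 mm ran from -4.24 to 0.41, so these arrays leave room for a difference larger than that of aoc1 as well as for none. The residual SD of the log2 ratio was 2.31 for A_92_P017031 and 1.61 for A_92_P015218, against a median of 0.230 over the 27375 probes ON in a line at every length. Of these probes, 41 had a higher residual SD than A_92_P017031 and 157 a higher one than A_92_P015218. The residual SD was 0.672 for lox3, 0.562 for LOC100285945 and 0.253 for aoc1.

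The spread of lox1 was shared by its 2 probes. Over the 24 channels their log2 intensities had a Pearson correlation of 0.861, and each was the most alike of all other probes ON at every length to the other. Over the 12 arrays their log2 ratios had a correlation of 0.867. Channels of an array share a hybridization, and the channels of a length are expected to share a slide, so these are descriptions. In the reference order lox1 lies next to lox2 and lox3 next to lox4, with no annotated gene between them, and how far the probes separate such paralogs was not tested.

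**Figure D3:**
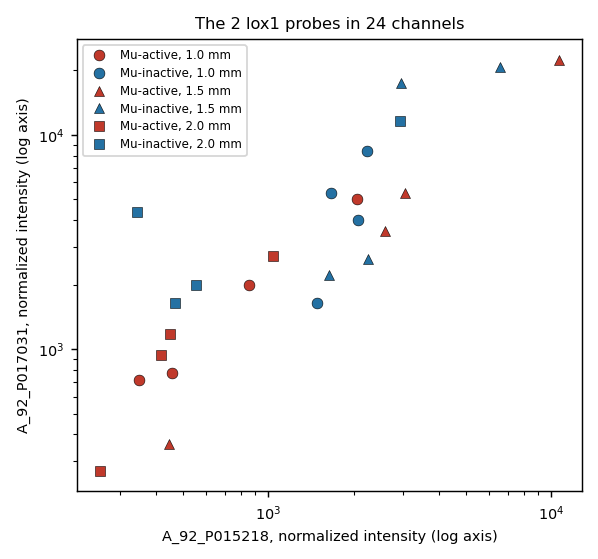
Normalized intensity of A_92_P017031 against that of A_92_P015218 (log axes) in the 24 channels, with red for Mu-active and blue for Mu-inactive anthers, and circles, triangles and squares for 1.0 mm, 1.5 mm and 2.0 mm. The 2 lox1 probes move together over the channels (Pearson r of 0.861 on the log2 scale), and the lowest values of A_92_P017031, from 271 to 1183, are all Mu-active, while the lowest Mu-inactive value is 1639.

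By line, A_92_P017031 averaged 2124 ± 2015 at 1.0 mm, 7902 ± 9840 at 1.5 mm and 1275 ± 1029 at 2.0 mm in Mu-active anthers, and 4853 ± 2816, 10744 ± 9689 and 4890.5 ± 4618 in Mu-inactive anthers at the same lengths. For A_92_P015218 the means were 928 ± 780 at 1.0 mm, 4188 ± 4472 at 1.5 mm and 540.0 ± 345 at 2.0 mm in Mu-active anthers, and 1865 ± 343, 3360.3 ± 2229 and 1074 ± 1240 in Mu-inactive anthers (SD, n = 4 for each). Both probes had their highest mean at 1.5 mm in both lines, but the lengths overlapped in each comparison.

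GRMZM2G132903 (A_92_P033618), whose reference symbol is LOC100285945, had no called difference between the lines. At 1.0 mm its intensities were 1798, 1796, 2107 and 3027 in Mu-active anthers, against 2374, 2048, 2587 and 1622 in Mu-inactive anthers. At 1.5 mm they were 1965, 2404, 2977 and 1909.6 in Mu-active anthers, against 2081, 2845, 2171 and 2306 in Mu-inactive anthers. In each of these lengths the Mu-active channel was brighter in 1 of 4 arrays. At 2.0 mm they were 4515, 4095, 2496 and 2603 in Mu-active anthers, against 2689, 2156, 3169 and 2616 in Mu-inactive anthers, with the 2 high Mu-active values in the arrays that had Mu-active in Cy3.

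The log2 ratio of LOC100285945 was 0.00 ± 0.26 at 1.0 mm, -0.04 ± 0.26 at 1.5 mm and 0.33 ± 0.26 at 2.0 mm (SE, limma), with adjusted p-values of 1.00, 0.985 and 0.679. The 95% confidence intervals ran from -0.57 to 0.57, from -0.61 to 0.53 and from -0.24 to 0.90 at these lengths. In Mu-active anthers it averaged 2182 ± 582 at 1.0 mm, 2314 ± 494 at 1.5 mm and 3427 ± 1029 at 2.0 mm, and in Mu-inactive anthers 2158 ± 420, 2351 ± 342 and 2657 ± 414 (SD, n = 4 for each). The means of both lines thus had the same order over the lengths, and neighbors in that order overlapped. At 1.5 mm the lines overlapped for all 5 member probes, where 2.86% of all probes had lines that did not, and at 2.0 mm they overlapped for the 4 member probes other than aoc1.

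The members did not follow a common pattern. Apart from the 2 lox1 probes, the Pearson correlations between members over the 24 channels lay between -0.24, for A_92_P015218 and LOC100285945, and 0.38, for aoc1 and lox3. The named probe most like aoc1 was that of GRMZM2G077960, described as a calcium/calmodulin-dependent protein kinase phosphatase, at 0.724, followed by GRMZM2G117226 without a described function at 0.698. The named probe most like lox3 was that of GRMZM2G040401 at 0.713, followed by GRMZM2G013811 at 0.660. For LOC100285945 they were GRMZM2G084576 at 0.825 and GRMZM2G377341 at 0.819. After its other probe, A_92_P015218 was most like GRMZM2G005954 at 0.856, and A_92_P017031 like GRMZM2G051806, described as hexokinase-1, at 0.715. These were taken from the 6996 probes with a name among the 27375 probes ON in a line at every length.

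The other probes matched by name to jasmonate synthesis, signaling and response had no called difference. A list of 19 probes held 4 member probes and 15 others. It was matched by name to lipoxygenases, later enzymes of jasmonate synthesis, ZIM motif proteins and proteins described as induced by jasmonate or wounding. Lipoxygenases were taken whether or not their product leads to jasmonate. Of the 42034 probes, 8420 carried a gene model or description, so the list may miss genes of the pathway. LOC100285945 carries no description that matched. Of the 15 others, 0 were called by limma at any length or in any change between lengths. Among all probes the highest share called was 0.866%, at 2.0 mm, so a call among so few probes was unlikely at the array-wide rate. By limma, 2, 2 and 5 of the 15 had an unadjusted p under 0.05 at 1.0 mm, 1.5 mm and 2.0 mm, where 8.85%, 10.0% and 12.3% of all probes did. Over all 19 probes the median log2 ratio was -0.06 at 1.0 mm, 0.04 at 1.5 mm and -0.07 at 2.0 mm, against 0.00 at each length over all probes. At 2.0 mm 9 of the 19 had a ratio above 0 and 10 a ratio below 0.

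**Figure D4:**
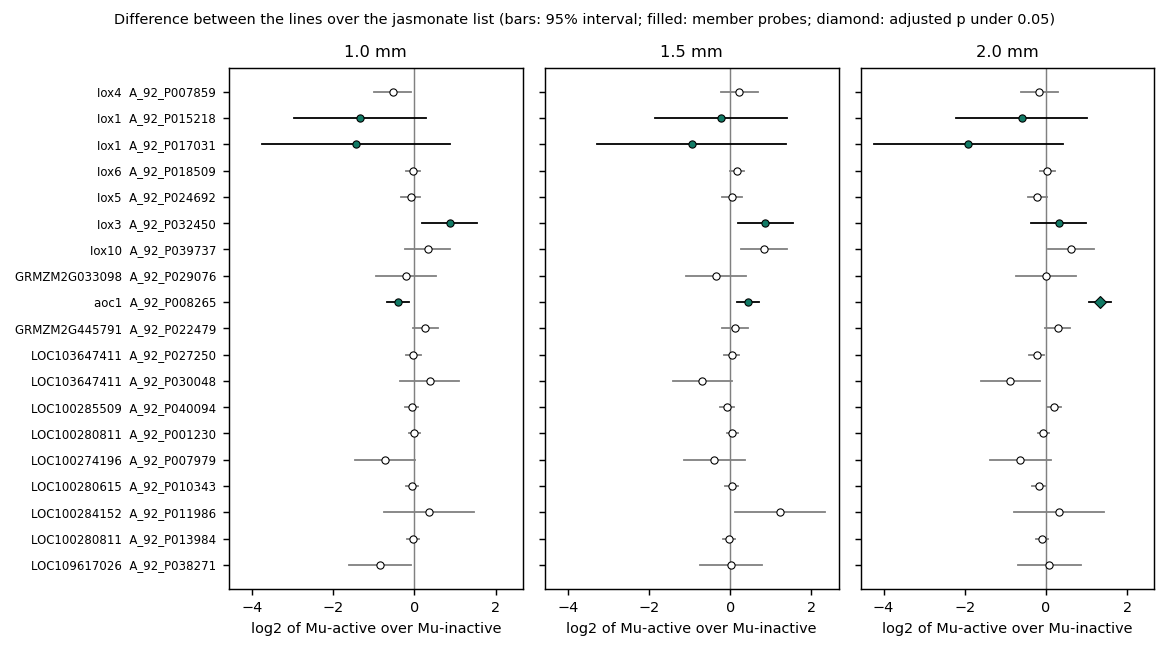
Log2 ratio of Mu-active over Mu-inactive by limma for the 19 probes of the jasmonate list at 1.0 mm, 1.5 mm and 2.0 mm, with 95% confidence intervals. Filled symbols are the 4 member probes in the list, and the diamond marks aoc1 at 2.0 mm, the 1 probe with an adjusted p under 0.05.

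Between lipoxygenase and cyclase stands allene oxide synthase, represented by a cytochrome P450 described as CYP74A18 (GRMZM2G033098, A_92_P029076). Its intensity averaged 2487 ± 1144, 2459 ± 1076 and 908 ± 413 in Mu-active anthers at the 3 lengths, and 2682 ± 614, 3079 ± 1562 and 913 ± 480 in Mu-inactive anthers (SD, n = 4 for each). Its log2 ratio at 2.0 mm, where aoc1 was higher in Mu-active anthers, was 0.00 ± 0.33 (SE), with a 95% confidence interval from -0.74 to 0.74. After the cyclase, the probe A_92_P022479 is described as a peroxisomal acyl-CoA oxidase by its transcript and as a ribosomal protein by its gene model (GRMZM2G445791), so its identity is uncertain. Its log2 ratio was 0.27 at 1.0 mm, 0.12 at 1.5 mm and 0.29 at 2.0 mm, each ± 0.14 (SE).

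Of the other lipoxygenases, lox4 (GRMZM2G109056), the neighbor of lox3, was chosen for description after its values were seen. Its log2 ratio was -0.54 ± 0.21 at 1.0 mm, 0.23 ± 0.21 at 1.5 mm and -0.16 ± 0.21 at 2.0 mm (SE, limma), with adjusted p-values of 0.433, 0.794 and 0.828, while that of lox3 was 0.87 at 1.0 mm. Likewise chosen after its values were seen was lox10 (GRMZM2G015419), known in maize for its part in making leaf volatiles. It was ON in 2, 3 and 3 of 4 arrays at the 3 lengths in Mu-active anthers, against 0 of 4 at each length in Mu-inactive anthers. Its log2 ratio was 0.33 ± 0.25, 0.83 ± 0.25 and 0.62 ± 0.25 (SE, limma), with adjusted p-values of 0.925, 0.254 and 0.353. Its mean intensity of 92.4 to 150.2 in Mu-active and 72.1 to 77.0 in Mu-inactive anthers lay close to the negative controls.

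Among signaling and response genes, the brightest ZIM motif probe (GRMZM2G114681, A_92_P030048) had log2 ratios of 0.38, -0.69 and -0.87 in order of length, each ± 0.33 (SE, limma), with adjusted p-values of 0.971, 0.535 and 0.304. A second probe of the same gene model, A_92_P027250, had -0.02, 0.04 and -0.23 at these lengths. The ZIM motif probe of another gene model (GRMZM2G151519, A_92_P040094) had -0.07, -0.08 and 0.19, and so the opposite sign at 2.0 mm. Of the class described as induced by jasmonate or wounding, the brightest probe, named Wun1 (GRMZM2G010909, A_92_P038271), averaged 600 ± 410, 810 ± 368 and 349 ± 70.1 in Mu-active anthers, and 903 ± 204, 738 ± 120 and 345 ± 119 in Mu-inactive anthers (SD, n = 4 for each). Wun1 was also the marker taken for wounding. Its log2 ratio was -0.85 at 1.0 mm, 0.03 at 1.5 mm and 0.09 at 2.0 mm, each ± 0.34 (SE), with adjusted p-values of 0.473, 0.991 and 0.960 by limma, and it was lower in Mu-active in 3 of 4 arrays at 1.0 mm. Its change between 1.0 mm and 2.0 mm was 0.94 ± 0.49 (SE, adjusted p = 0.668, limma), of the same sign as the called change of aoc1. Among the other probes of this class, A_92_P007979 had a change of this sign between these lengths, at 0.09 ± 0.48 (SE, limma). The rest changed by -0.07 ± 0.09 (A_92_P001230), -0.12 ± 0.10 (A_92_P010343), -0.04 ± 0.70 (A_92_P011986) and -0.06 ± 0.09 (A_92_P013984). None of these changes was called, and their SEs leave the sign of each open. The part of wounding in the change of aoc1 was not tested.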

How the data were processed

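The authors deposited 1 Agilent Feature Extraction file per array. From it, the median foreground intensity of both channels (linear, not normalized) was used, and the log10 ratio deposited in the same files as an alternative. A deposited table gives the authors' log2 ratio of each probe and length, which was used to judge the direction. Following the methods, limma 3.58.1 (R 4.3.3) normalized each array by loess and then between arrays. The methods name a quartile method for the second step, which was read here as quantile normalization over all channels. They mention no background subtraction, and none was done. The log2 ratios of the 12 arrays were fitted with a coefficient per length and a dye term, sharing 1 estimate of spread, with Benjamini-Hochberg adjustment over 42034 probes. Alternatives changed the normalization, background, dye term, pairing, probe filter and arrays. The lines share each array, so the array is the pairing. Spots flagged as outliers were left out. On simulated data for 1.0 mm, 77% of log2 changes of 1 and 93% of log2 changes of 2 were recovered among 42034 probes, with 10 false calls. These rates are over all probes, whose median residual SD was 0.156, below that of each member probe. They thus do not give the rate for the members. The tables pair 7743 probes with 6832 gene models. Median raw intensity was 1.21 to 3.15 times the negative control mean. The number of arrays limits precision. The members, lists and the rule for named genes (each member, each called list probe, the brightest probe of each class, and the 2 most similar named probes) were chosen with earlier results of these data known. Figures were drawn with Python 3.11.15.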

Additional observations from a re-analysis of the deposited data

Results flagged for a closer look

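The difference between the lines for aoc1 (A_92_P008265) differed between lengths. Between 1.0 mm and 2.0 mm its log2 ratio of Mu-active over Mu-inactive changed by 1.74 (adjusted p = 0.0130, limma), and between 1.0 mm and 1.5 mm by 0.85 (adjusted p = 0.181, limma). The Mu-active channel was lower in 4 of 4 arrays at 1.0 mm and higher in 4 of 4 arrays at 1.5 mm and at 2.0 mm.

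In 2 of 45 groups of 4 values of the member probes, 1 array lay far from the other 3 by Dixon's test, and chance gives about 1 in 20 groups. The Mu-inactive intensity of lox1 (A_92_P015218) at 2.0 mm was 2929 in array 1. The log2 ratio of LOC100285945 (A_92_P033618) at 1.0 mm was 0.90 in array 4, where the other arrays had ratios below 0.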

How the results depend on the processing

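The call of aoc1 at 2.0 mm held in 19 of 20 alternative fits, with log2 ratios from 1.22 to 1.48, and in each fit that left out 1 array. Fitted alone, the 2.0 mm arrays gave the same log2 ratio of 1.33 with an adjusted p of 0.104. The change of aoc1 between 1.0 mm and 2.0 mm held in 18 of 19, from 1.62 to 1.88. With no replicate block, the 24 channels taken as unpaired, it was again 1.74 but with an adjusted p of 0.213. No alternative called another difference of a member. The cause of these changes was not tested. With no quantile step after loess, the log2 ratio of LOC100285945 at 1.0 mm was -0.032 and its change between 1.0 mm and 1.5 mm was 0.0024, and the change of lox3 between these lengths was 0.20. With the log ratio of the scanner software, LOC100285945 at 1.0 mm had -0.0029 and the lox3 change was 0.15. With channels centered on their medians, LOC100285945 in Mu-inactive anthers differed between 1.5 mm and 1.0 mm by -0.17 and between 2.0 mm and 1.0 mm by -0.0028.

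The number of all probes called moved more. At 1.0 mm it was 158, against 361 without the quantile step, 76 with the scanner's log ratio, 73 with no replicate block and 28 with the length fitted alone. At 1.5 mm it was 198, against 89 without the quantile step and 72 fitted alone. At 2.0 mm it was 364, against 122 without the quantile step, 191 with no replicate block and 120 fitted alone. For the change between 1.0 mm and 1.5 mm it was 4, against 8 without the quantile step, with normexp background or with no replicate block, and 7 with the scanner's log ratio or no dye term. For the change between 1.5 mm and 2.0 mm it was 0, against 2 with the scanner's log ratio. Leaving out 1 array gave 49 to 178 calls at 1.0 mm, 27 to 211 at 1.5 mm, 39 to 393 at 2.0 mm, 3 to 15 for the change between 1.0 mm and 1.5 mm, 0 to 2 for that between 1.5 mm and 2.0 mm, and 4 to 29 for that between 1.0 mm and 2.0 mm (22 with all arrays).

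Leaving out 1 array turned the direction of uncalled values. At 1.5 mm the log2 ratio of lox1 ran from -1.22 (without array 1) to 0.59 (without array 4) for A_92_P015218 and from -2.25 to 0.50 for A_92_P017031 under the same omissions. LOC100285945 ran from -0.34 (without array 4) to 0.17 (without array 1) at 1.0 mm and from -0.23 (without array 3) to 0.052 (without array 2) at 1.5 mm. Between 1.0 mm and 1.5 mm the change ran from -0.82 to 1.94 for A_92_P017031, from -0.45 to 0.34 for lox3 and from -0.23 to 0.31 for LOC100285945. Between 1.5 mm and 2.0 mm it ran from -1.19 to 0.62 for A_92_P015218 and from -2.42 to 0.34 for A_92_P017031, and between 1.0 mm and 2.0 mm from -1.52 to 0.32 for A_92_P017031. The median raw signal was 1.49 to 3.15 times the negative control mean at 1.0 mm and 1.21 to 1.88 times at 1.5 mm and 2.0 mm.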
